A study of Mus musculus with 16 samples.

Results

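Imprinted genes are read mainly from the copy inherited from 1 parent. The choice is set by DNA methylation laid down at CpG sites (a C followed by a G) in the egg or sperm, kept through cell divisions at imprint control regions, and it is best known for dosing fetal and placental growth. In mouse embryonic stem (ES) cells imprints are usually kept but can be lost in culture, so the level of an imprinted gene depends both on its imprint and on whether its activators are present. The genes described here are 10: H19, Igf2r, Cdkn1c and Meg3, known to be read from the maternal copy, and Igf2, Dlk1, Mest, Peg3, Peg10 and Snrpn, known to be read from the paternal copy. They were found as the array probes whose gene name, or RefSeq accession matched to a symbol, is 1 of these names. Of 20977 genes named on the array, 9 of the 10 had a probe (20 probes, 38 spots). No probe was named Meg3, which is not analysed here. The rule used no measured value.

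E14 mouse ES cells, grown with serum and the self-renewal factor LIF, were transfected with a plasmid, sorted by eGFP fluorescence after 24 h and harvested 48 h after transfection. The 4 groups were Ptn_VP64 and Ptn_DEL, in which a TALE protein (a programmable DNA-binding protein) aimed at the gene Ptn carried VP64 or DEL, Ptn_Delta, the TALE construct labelled Delta, and EGFP, the fluorescent protein without a TALE. VP64 is a synthetic transcription activator. In the published study DEL is a short acidic peptide that loosens chromatin and Delta lacks an effector, but the labels do not say so. Each group has 4 one-colour Agilent arrays, described as 2 biological and 2 technical replicates. Which arrays repeat a sample is not stated, so p-values measure only the spread between these arrays, which may be technical. The title of the series asks whether loosening chromatin alone changes nuclear organization. The expression arrays compare the 3 TALE groups with EGFP and with each other.

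All values below are log2 levels, meaning log2 of a probe's processed signal minus log2 of that array's 75th percentile. A difference of 1 in log2 level is a doubling of the signal. Levels compare groups for the same probe, never 1 probe with another. Array 75th percentiles ran from 209.3 to 1253 intensity units, and 27.1% to 43.8% of spots were well above background, lowest in EGFP replicate 2. Slide 1 held replicates 1 and 2 and slide 2 held replicates 3 and 4, while each construct kept 1 column of the slide, so construct and column cannot be told apart. All 10 ES cell markers, Pou5f1 and Nanog among them, were well above background on at least 3 of 4 arrays in every group, with array means of 4.22 to 6.08. The targeted gene Ptn was 4.87 ± 1.04 (SE) higher in Ptn_VP64 than in EGFP (limma, adjusted p = 0.68), and 4.37 ± 0.84 higher after the correction of dim patches described next (limma, adjusted p = 0.03). It was 0.36 ± 0.85 higher in Ptn_DEL and 1.21 ± 0.85 higher in Ptn_Delta than in EGFP (limma, adjusted p = 1 and 0.98). In bulk samples, more cells of a type and more RNA per cell cannot be told apart.

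Igf2r and Mest show how far the position of a spot changed its value. The array carries 10 copies of 1 probe for each of them. Igf2r encodes the receptor that carries IGF2 to the lysosome, and Mest encodes a hydrolase-like protein. On slide 1 the 10 Igf2r spots of an array differed by an SD of 0.61 to 2.54 (median 1.00), against 0.06 to 0.64 (median 0.12) on slide 2. The widest range on 1 array was 5.28 for Igf2r and 5.74 for Mest. Dim and bright patches on the arrays were therefore measured from neighbouring spots and subtracted as an alternative, called the patch-corrected levels. After this, the SD of the Igf2r spots was 0.09 to 0.42 (median 0.23) on slide 1 and 0.07 to 0.39 (median 0.17) on slide 2, and that of the Mest spots was 0.10 to 0.22 on slide 1, against 0.06 to 2.30 before. Spots shifted by over 1 were also left out, which took the Igf2r spots of Ptn_Delta replicate 1 to 3, against 8 before.

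**Figure D1:**
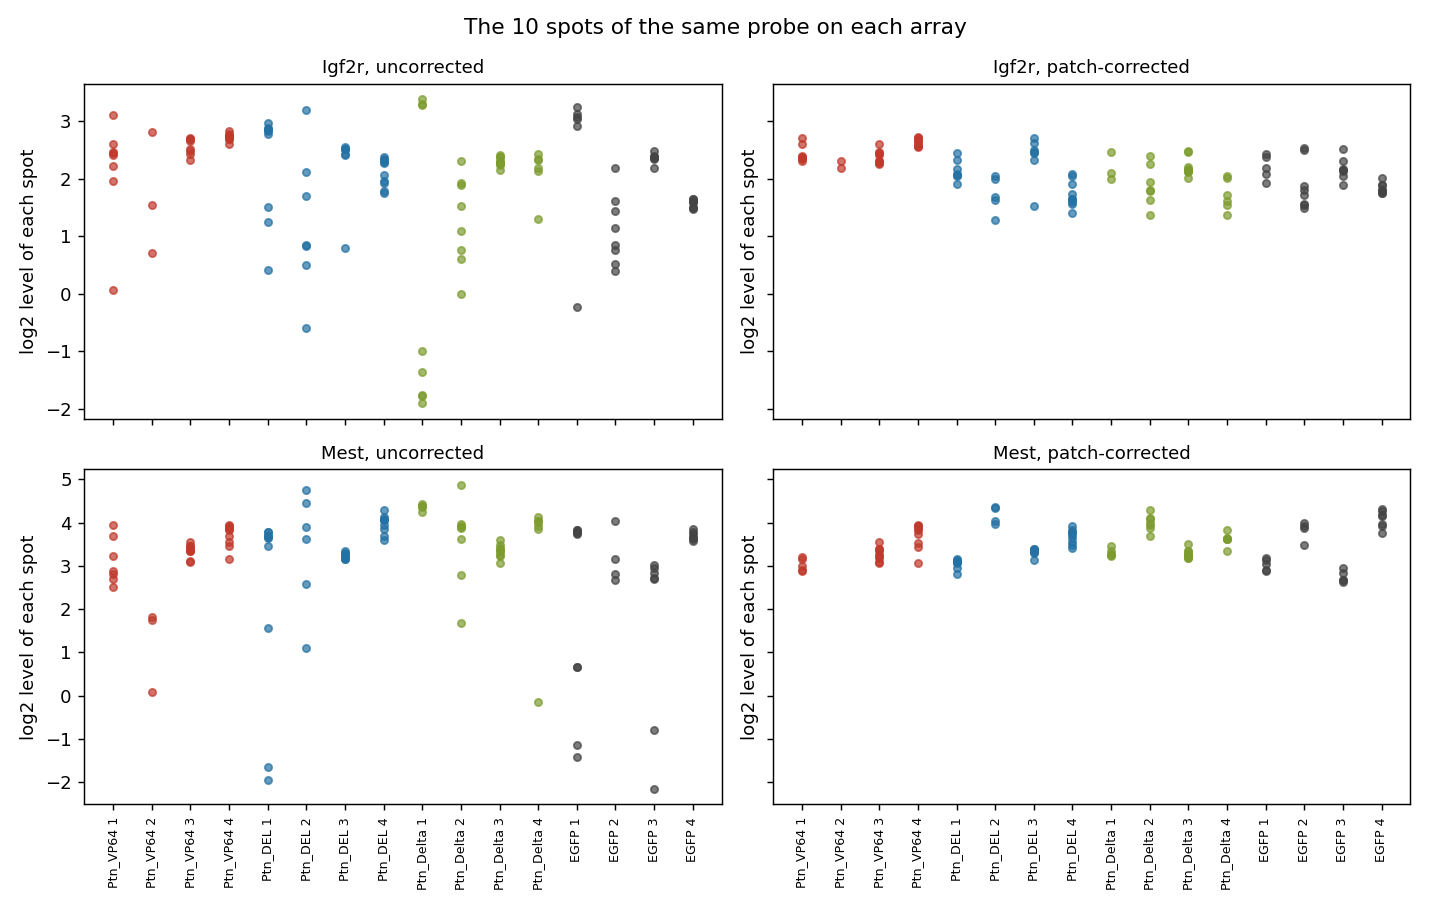
Log2 level of each of the 10 spots of the same Igf2r probe (top) and Mest probe (bottom) on the 16 arrays, uncorrected at left and patch-corrected at right; each point is a spot, spots marked by the scanner software or lying in a strong patch are left out, and colours mark the groups. The spread among copies of 1 probe reaches 5.28 for Igf2r and 5.74 for Mest before correction, and 1.19 and 0.88 after it.

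The ES cells had a well measured signal for 7 of the 9 genes. Cdkn1c, Mest, Igf2r and Snrpn had a probe well above background on all 16 arrays, Dlk1 on 15, Peg3 on 14 and Peg10 on 12. The best H19 probe reached 3 arrays and the Igf2 probe 2, so neither passed the filter (well above background on at least 4 of 16 arrays) and neither was tested. In the main test, which averages the arrays of a group to 2 samples in each possible pairing and keeps the largest limma p-value, no tested member differed between any 2 groups at an adjusted p under 0.05. This was 0 of 7 members in each of the 6 comparisons, where 0.0% of the 12725 to 12779 genes tested were called. At an unadjusted p under 0.05 the member counts were 1 of 7 for Ptn_VP64 minus EGFP (3.88% of all genes), 2 of 7 for Ptn_Delta minus EGFP (4.0%), 1 of 7 for Ptn_VP64 minus Ptn_Delta (2.92%), and 0 for Ptn_DEL minus EGFP (2.68%), Ptn_VP64 minus Ptn_DEL (1.85%) and Ptn_DEL minus Ptn_Delta (0.642%). The comparisons with EGFP share its 4 arrays. These counts moved both ways when 1 array was left out. Without EGFP replicate 3 they were 0 of 7 for Ptn_VP64 minus EGFP (360 of 12779 genes) and for Ptn_Delta minus EGFP (391 of 12598). Without Ptn_Delta replicate 1 they were 2 of 7 for Ptn_VP64 minus EGFP (503 of 12779 genes). They were then 0 of 7 for Ptn_Delta minus EGFP (330 of 12722) and for Ptn_VP64 minus Ptn_Delta (238 of 12779).

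**Figure D2:**
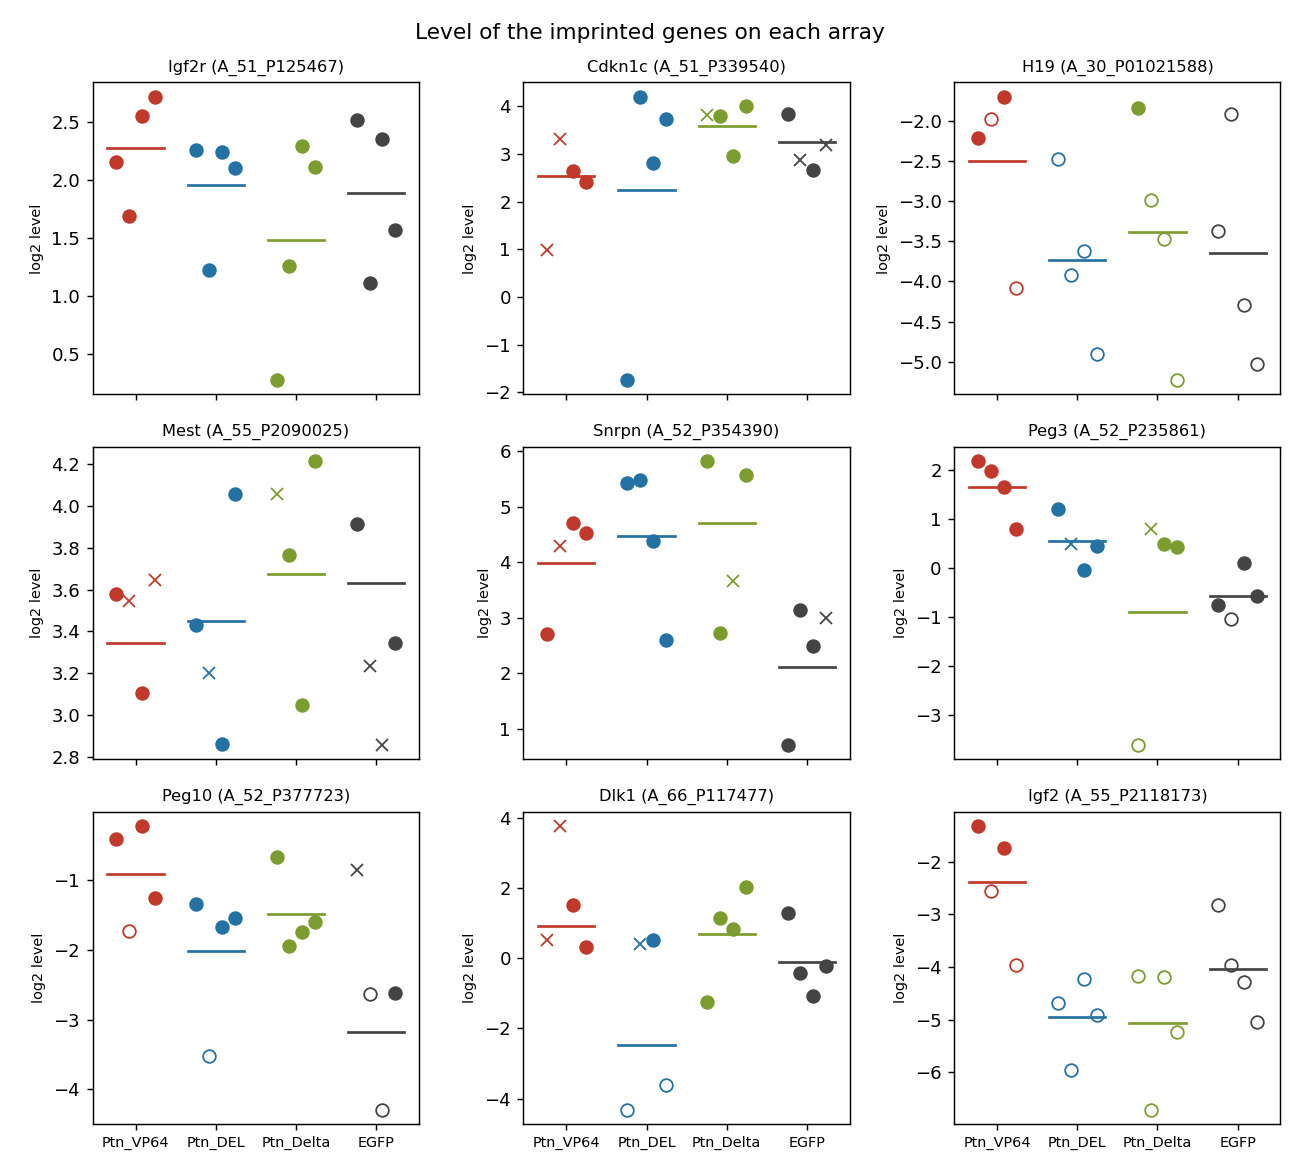
Log2 level of 1 probe of each gene on every array, in Ptn_VP64, Ptn_DEL, Ptn_Delta and EGFP from left to right; filled points are well above background, open points are not, crosses are spots that the scanner software marked and that were left out, and lines are group means of the points kept. Peg3 on the 4 Ptn_VP64 arrays (0.80 to 2.19) lies above all EGFP arrays (-1.04 to 0.11), and Igf2 is well above background on 2 Ptn_VP64 arrays and on no other.

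Imprinted promoters can be read for their CpG content, which sets how many sites can carry methylation. Promoters of 7 of the 10 genes (16 start sites) matched the RefSeq promoter table of the GRCm38.p6 build, and 3 are shown as a short contrast. Peg3 is shown because it had the highest fitted Ptn_VP64 minus EGFP difference in the main test and its promoter lies in its imprint control region. Igf2r is shown as the maternally expressed gene measured by 10 spots, whose imprint control region lies in an intron and not here. Dlk1 is shown because 1 of its probes separated all 3 TALE groups from EGFP after patch correction, though not before it. Each is the 250 bases before the start site on the strand of the gene, 5′ to 3′, with CG in capitals. Peg3 is chr7:6730420-6730669, minus strand. Igf2r is chr17:12769707-12769956, minus strand. Dlk1 is chr12:109452573-109452822, plus strand.
Peg3: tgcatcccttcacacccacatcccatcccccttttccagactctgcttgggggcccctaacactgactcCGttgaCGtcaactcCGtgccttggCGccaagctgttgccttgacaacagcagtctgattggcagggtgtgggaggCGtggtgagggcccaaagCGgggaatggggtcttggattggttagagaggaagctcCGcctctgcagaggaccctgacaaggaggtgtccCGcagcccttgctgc
Igf2r: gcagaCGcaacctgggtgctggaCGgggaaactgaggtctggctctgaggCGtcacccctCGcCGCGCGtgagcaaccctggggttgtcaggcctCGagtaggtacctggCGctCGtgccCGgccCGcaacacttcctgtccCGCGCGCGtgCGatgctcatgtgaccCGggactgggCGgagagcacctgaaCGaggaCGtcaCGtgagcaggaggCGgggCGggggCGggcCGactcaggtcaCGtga
Dlk1: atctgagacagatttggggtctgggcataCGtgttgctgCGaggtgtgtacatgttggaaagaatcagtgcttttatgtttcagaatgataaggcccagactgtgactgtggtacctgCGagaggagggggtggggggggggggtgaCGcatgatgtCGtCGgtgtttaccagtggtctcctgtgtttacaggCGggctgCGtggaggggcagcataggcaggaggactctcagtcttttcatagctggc
Counting CG, which reads the same on both strands, the Igf2r promoter holds 27, a number that 8.56% of 32851 promoters of that length reach, while Peg3 and Dlk1 hold 8 each, which 43.0% of promoters reach. The median promoter holds 6. The arrays measured no methylation.

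Peg3, a zinc finger protein linked to maternal care and growth in mice, had the highest fitted Ptn_VP64 minus EGFP difference of the members in the main test. Its log2 levels were 2.19, 1.98, 1.66 and 0.80 on the Ptn_VP64 arrays (replicates 1 to 4), and 1.22, -0.03 and 0.46 on Ptn_DEL replicates 1, 3 and 4. They were -3.61, 0.50 and 0.43 on Ptn_Delta replicates 1, 3 and 4, and -0.75, -1.04, 0.11 and -0.57 on the EGFP arrays. All 4 Ptn_VP64 arrays lay above all EGFP arrays and all Ptn_Delta arrays kept, and overlapped those of Ptn_DEL. Replicate 2 of Ptn_DEL and of Ptn_Delta were left out because the scanner software marked the spot, and would read 0.49 and 0.80. With the marked Ptn_Delta spot kept (0.798, against 0.795 on Ptn_VP64 replicate 4), Ptn_VP64 and Ptn_Delta would overlap. The low Ptn_Delta replicate 1 came from a spot in a dim patch, where neighbouring spots were shifted by -3.48. The group means ran 1.65 ± 0.61 (SD, n = 4) in Ptn_VP64, 0.55 ± 0.63 (n = 3) in Ptn_DEL, -0.89 ± 2.35 (n = 3) in Ptn_Delta and -0.56 ± 0.49 (n = 4) in EGFP. The Ptn_Delta and EGFP means, the lowest of the 4, differ by less than the Ptn_Delta SD.

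In the main test Peg3 was 2.22 ± 1.22 (SE) higher in Ptn_VP64 than in EGFP, which did not pass (limma, adjusted p = 1). It was 3.23 ± 1.22 higher in Ptn_VP64 than in Ptn_Delta (limma, adjusted p = 1). Without the dim Ptn_Delta spot, on patch-corrected levels with the arrays counted singly, this difference was 1.01 ± 0.46 (limma, adjusted p = 0.44). The patch-corrected levels were 2.14, 1.68 and 0.73 on 3 Ptn_VP64 arrays, 0.59, 0.39 and 0.31 on 3 Ptn_DEL arrays, 0.52 and 0.45 on 2 Ptn_Delta arrays, and -1.0, 0.09 and -0.22 on 3 EGFP arrays. Ptn_VP64 was highest and EGFP lowest, with no overlap between them, and Ptn_DEL and Ptn_Delta lay together in between.

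On patch-corrected levels, a fit with the 16 arrays counted singly and the slide as a term called Peg3 in Ptn_VP64 minus EGFP, with a difference of 1.89 ± 0.39 (limma, adjusted p = 0.041). This fit counts technical repeats as replicates, which makes its p-values too small, and it called 3.26% of 11182 genes in that comparison. With the arrays averaged the patch-corrected difference was 2.20 ± 0.50 (limma, adjusted p = 0.42) and was not called. Within slide 1 the uncorrected difference was 2.98 and within slide 2 it was 1.46. Peg3 lost its call in 9 of the 16 fits that left out 1 array, those without Ptn_VP64 replicates 1 or 3, Ptn_DEL replicates 1, 3 or 4, Ptn_Delta replicates 3 or 4, or EGFP replicates 2 or 4, while its difference stayed between 1.39 and 2.31 in all 16. Its second probe was well above background on 7 arrays, with -1.28 ± 1.1 (n = 4) in Ptn_VP64 and -2.89 ± 1.70 (n = 3) in EGFP, and overlapped between these groups. None of these EGFP values was well above background. EGFP replicate 4 was, but it was left out as marked and would read -0.28, inside the Ptn_VP64 range.

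Peg10, a gene derived from a retrotransposon and needed for the mouse placenta, had the next highest fitted difference in the main test. Within slide 2 its difference was above that of Peg3. Its log2 levels were -0.41, -1.74, -0.23 and -1.27 on the Ptn_VP64 arrays and -1.35, -3.53, -1.68 and -1.54 on the Ptn_DEL arrays. They were -0.67, -1.95, -1.74 and -1.61 on the Ptn_Delta arrays, and -2.63, -4.29 and -2.62 on EGFP replicates 2, 3 and 4. Every array of Ptn_VP64 and of Ptn_Delta lay above these EGFP arrays. EGFP replicate 1 was left out as marked and would read -0.86, inside the Ptn_VP64 range. EGFP replicates 2 and 3, Ptn_VP64 replicate 2 and Ptn_DEL replicate 2 were not well above background, so 1 of the 3 EGFP values is a measured level. EGFP replicate 3 is at the lowest signal of its array, and its neighbours were shifted by -4.68.

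With EGFP mostly unmeasured, the fitted Peg10 differences depend on signals near background. They were 2.13 ± 0.64 for Ptn_VP64 minus EGFP (limma, adjusted p = 1) and 1.55 ± 0.64 for Ptn_Delta minus EGFP (limma, adjusted p = 0.98). Within slide 1 the Ptn_VP64 minus EGFP difference was 1.56 and within slide 2 it was 2.71. Patch correction removed EGFP replicate 3, which left -0.90 ± 0.67 (SD, n = 4) in Ptn_VP64, -2.07 ± 0.35 (n = 4) in Ptn_DEL, -1.91 ± 0.22 (n = 4) in Ptn_Delta and -2.45 ± 0.06 (n = 2, 1 of them well above background) in EGFP. The Ptn_DEL and Ptn_Delta means differ by less than their SDs. With the arrays counted singly Peg10 passed, at 1.55 ± 0.37 for Ptn_VP64 minus EGFP (limma, adjusted p = 0.045), and did not with them averaged (1.55 ± 0.52, limma, adjusted p = 0.51). It kept its call in 3 of 16 fits that left out 1 array, those without EGFP replicate 3 or without Ptn_VP64 replicate 2 or 4, with differences of 1.32 to 1.80 over the 16. Its second probe was well above background on 3 arrays, with -2.83 ± 0.72 in Ptn_VP64 and -2.0 ± 1.62 in EGFP (n = 4 each), the opposite order.

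Trophoblast and fibroblast markers were well above background most often in Ptn_VP64, while primitive endoderm, neural and mesoderm markers were not highest there alone. Over all spots, 34.9% to 41.4% were well above background on the Ptn_VP64 arrays and 36.1% to 40.7% on Ptn_DEL. The share was 34.4% to 43.8% on Ptn_Delta and 27.1% to 41.2% on EGFP. How far this share shaped the marker counts was not tested. Of 11 trophoblast markers, 8 were well above background on at least 3 arrays in Ptn_VP64, against 6 in Ptn_DEL, 5 in Ptn_Delta and 2 in EGFP. The mean of the list ran from -1.10 to 1.29 over the Ptn_VP64 arrays, from -2.27 to -0.89 over Ptn_DEL, from -1.78 to -0.56 over Ptn_Delta and from -2.12 to -1.19 over EGFP. Elf5, a defining trophoblast factor, was not well above background on any array. Of 9 fibroblast markers the counts were 5 in Ptn_VP64, 3 in Ptn_DEL, 3 in Ptn_Delta and 2 in EGFP, with array means of -2.23 to -0.75 in Ptn_VP64 and -3.48 to -1.50 in EGFP, and Postn and Pdgfrb were above background on no array. Of 9 primitive endoderm markers the counts were 4, 4, 5 and 1 in the same order. Neural markers gave 4, 4, 3 and 2 of 5, and mesoderm markers 1 of 5 in every group. Their part in the Peg3 and Peg10 differences was not tested.

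Igf2 encodes the fetal growth factor that Igf2r clears. Its probe gave -1.32, -2.55, -1.74 and -3.96 on the Ptn_VP64 arrays, and only replicates 1 and 3 were well above background. It gave -4.69, -5.96, -4.23 and -4.91 in Ptn_DEL, -4.17, -6.71, -4.19 and -5.23 in Ptn_Delta, and -2.83, -3.97, -4.29 and -5.06 in EGFP, on no array well above background. The Ptn_VP64 arrays lay above all Ptn_DEL and Ptn_Delta arrays and overlapped EGFP. No fold is given, since 2 of the 4 Ptn_VP64 arrays and all others were not well above background. With no filter on dim probes the limma adjusted p was 1 for all 3 of these comparisons.

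H19, a maternally expressed long non-coding RNA near Igf2, with 2 genes between them, was near or below background throughout. Its brightest probe read -2.22, -1.98, -1.70 and -4.08 in Ptn_VP64, where replicates 1 and 3 were well above background. It read -2.47, -3.92, -3.63 and -4.91 in Ptn_DEL, -1.85, -2.99, -3.47 and -5.23 in Ptn_Delta, where replicate 1 was well above background, and -3.37, -1.92, -4.29 and -5.03 in EGFP. The groups overlapped, and no fold is given. The other H19 probes were well above background on 0 to 2 of 16 arrays. The 2 arrays with measured Igf2, Ptn_VP64 replicates 1 and 3, were also those with measured H19 in that group. They lie on different slides but both in row 2, while Ptn_VP64 replicates 2 and 4 lie in row 1. An effect of the row was not tested.

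Igf2r passed no test between groups. Its log2 levels were 2.16, 1.69, 2.56 and 2.72 in Ptn_VP64, 2.26, 1.22, 2.25 and 2.11 in Ptn_DEL, 0.27, 1.26, 2.30 and 2.12 in Ptn_Delta, and 2.52, 1.11, 2.36 and 1.57 in EGFP. All groups overlapped, and the low values were on slide 1 arrays except EGFP replicate 4. Patch-corrected levels were 2.44, 2.24, 2.38 and 2.63 in Ptn_VP64, 2.14, 1.73, 2.37 and 1.73 in Ptn_DEL, 2.19, 1.88, 2.20 and 1.71 in Ptn_Delta, and 2.20, 1.87, 2.17 and 1.83 in EGFP. On that scale each Ptn_VP64 array was above every EGFP and Ptn_Delta array. The gap was small, from 2.24 on Ptn_VP64 replicate 2 to 2.20 in both other groups, and that Ptn_VP64 array kept only 2 of its 10 spots. The difference was 0.40 ± 0.19 for Ptn_VP64 minus EGFP and did not pass even with the arrays counted singly (limma, adjusted p = 0.31). Airn, the paternally expressed RNA that runs antisense to Igf2r and silences it in cis, was 1.42 ± 0.61 higher in Ptn_VP64 than in EGFP (limma, adjusted p = 1).

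Dlk1, a membrane protein that holds back differentiation, has 2 probes. The brighter read 1.51 and 0.33 on Ptn_VP64 replicates 3 and 4, and -4.31, 0.52 and -3.62 on Ptn_DEL replicates 1, 3 and 4. It read -1.25, 1.14, 0.83 and 2.02 in Ptn_Delta and 1.29, -0.42, -1.07 and -0.22 in EGFP. The low Ptn_DEL replicates 1 and 4 were not well above background, and neighbouring spots were shifted by -3.21 and -4.48. In Ptn_DEL the second probe read -0.70, -0.83 and 0.00 on replicates 1, 2 and 4, inside the range of the other TALE groups. It read -1.96 on Ptn_VP64 replicate 2, not well above background, and -1.92 to -0.82 in EGFP. Before correction each TALE group overlapped EGFP on this probe. The second probe stands for the gene after patch correction, with -0.66 ± 0.54 (n = 3) in Ptn_VP64, -0.70 ± 0.55 (n = 3) in Ptn_DEL, -0.65 ± 0.37 (n = 4) in Ptn_Delta and -1.49 ± 0.13 (n = 4) in EGFP. Every TALE array left was above every EGFP array by that measure, with the smallest gap between -1.31 in Ptn_DEL and -1.33 in EGFP. The correction had left out Ptn_VP64 replicate 2. The 3 differences from EGFP were 0.81 ± 0.32, 0.80 ± 0.32 and 0.84 ± 0.29 with the arrays counted singly, none of them called (limma, adjusted p = 0.22, 0.57 and 0.41).

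Snrpn, which encodes a splicing protein at the Prader-Willi locus, gave the highest Ptn_Delta minus EGFP difference of the members, on a probe that its second bright probe did not match. One probe read 2.71, 4.71 and 4.53 in Ptn_VP64, 5.43, 5.48, 4.39 and 2.60 in Ptn_DEL, 5.82, 2.72 and 5.57 in Ptn_Delta, and 0.71, 3.14 and 2.49 in EGFP, and the TALE groups overlapped EGFP. The main test gave 2.45 ± 1.05 for Ptn_Delta minus EGFP (limma, adjusted p = 0.98). Neighbouring spots were shifted by -2.61, -0.76 and -1.15 on EGFP replicates 1, 2 and 3. On Ptn_Delta replicates 1, 2 and 4 the shifts were 1.34, -0.91 and 0.82. Their part in this difference was not tested. The other bright probe read 0.47, 5.73 and 4.22 in Ptn_Delta, against 3.85 and 4.05 in EGFP, which overlapped. Patch correction left too few arrays and Snrpn was not tested then. On the authors' deposited values the Ptn_Delta minus EGFP difference was -0.19 ± 0.98.

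Cdkn1c, a cell-cycle inhibitor, and Mest passed no test either. Cdkn1c read 2.64 and 2.42 on Ptn_VP64 replicates 3 and 4, -1.74, 4.20, 2.80 and 3.74 in Ptn_DEL, 3.79, 2.96 and 4.00 on Ptn_Delta replicates 2, 3 and 4, and 3.83 and 2.67 on EGFP replicates 1 and 3. On Ptn_DEL replicate 1, which read -1.74, neighbouring spots were shifted by -4.65, and patch correction left it out. Ptn_VP64 replicates 1 and 2 were left out as marked and would read 0.99 and 3.32. EGFP replicates 2 and 4 were left out too and would read 2.87 and 3.20, and with these values the groups would overlap. Only 2 Ptn_VP64 and 2 EGFP arrays remained, so the complete separation below EGFP is of 2 against 2 arrays. The difference was -0.72 ± 1.30 for Ptn_VP64 minus EGFP (limma, adjusted p = 1), and -0.10 ± 0.35 after patch correction with the arrays counted singly. By that fit Ptn_VP64 minus Ptn_Delta was -0.76 ± 0.31 (limma, adjusted p = 0.40). The brightest Mest probe read 3.58 and 3.11 on Ptn_VP64 replicates 1 and 3, 3.43, 2.86 and 4.06 on Ptn_DEL replicates 1, 3 and 4, 3.76, 3.05 and 4.21 on Ptn_Delta replicates 2, 3 and 4, and 3.91 and 3.35 on EGFP replicates 1 and 4, and the groups overlapped. Its difference was -0.29 ± 0.83 for Ptn_VP64 minus EGFP (limma, adjusted p = 1). The 10-spot probe of Mest averaged 2.84 ± 1.11 in Ptn_VP64, 3.24 ± 0.66 in Ptn_DEL, 3.67 ± 0.47 in Ptn_Delta and 2.61 ± 0.99 in EGFP (SD, n = 4 each). After patch correction these means were 3.33 ± 0.34 (n = 3), 3.55 ± 0.49, 3.55 ± 0.33 and 3.42 ± 0.63 (n = 4 each), all within their SDs.

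Counted over the members, separation of all arrays above EGFP was seen for 2 of 7 in Ptn_VP64 (8.95% of genes), 0 of 7 in Ptn_DEL (7.4%) and 1 of 7 in Ptn_Delta (7.74%). Separation below EGFP was seen for 1 of 7 in Ptn_VP64 (3.07%). This was Cdkn1c, with 2 arrays left in each of these groups. Against Ptn_Delta, Ptn_VP64 lay wholly above for 1 (2.3%) and wholly below for 1 (8.06%). The first was Peg3, which would overlap with its marked Ptn_Delta spot kept. Against Ptn_DEL, Ptn_VP64 lay wholly above for 0 (2.22%) and wholly below for 0 (6.23%). The median member difference was 0.50 for Ptn_VP64 minus EGFP, 0.07 for Ptn_DEL minus EGFP and 0.18 for Ptn_Delta minus EGFP, beside 0.07, 0.18 and 0.18 for all genes tested. Quantile normalization moved the last 2 of these all-gene medians to -0.12 and -0.09, and the member medians for Ptn_DEL and Ptn_Delta to -0.56 and -0.12, so their sign depends on the scaling. The Ptn_VP64 median ran from 0.17 without Ptn_VP64 replicate 3 to 1.09 without Ptn_VP64 replicate 4 when 1 array was left out, and was 0.21 without EGFP replicate 2, 0.92 without Ptn_DEL replicate 1, 0.84 without Ptn_DEL replicate 3 and 0.78 without EGFP replicate 1.

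On patch-corrected levels 6 members could be tested. With the arrays counted singly 2 of 6, Peg3 and Peg10, were called in Ptn_VP64 minus EGFP (3.26% of genes), and 0 of 6 in Ptn_DEL minus EGFP (0.0715%), Ptn_Delta minus EGFP (0.0268%), Ptn_VP64 minus Ptn_Delta (0.706%), Ptn_VP64 minus Ptn_DEL (0.841%) and Ptn_DEL minus Ptn_Delta (0.0%). With the arrays averaged 0 of 6 were called in any of these, beside 0.0179% of genes in Ptn_VP64 minus EGFP and 0.00894% in each of Ptn_VP64 minus Ptn_Delta and Ptn_VP64 minus Ptn_DEL. All Ptn_VP64 arrays lay above all EGFP arrays for 4 of 6 members, Igf2r, Dlk1, Peg3 and Peg10 (13.4% of genes), and below for Cdkn1c (9.45%). The Cdkn1c separation was again of 2 against 2 arrays. Ptn_DEL lay wholly above EGFP for Dlk1 and Peg3 (7.4%), and Ptn_Delta for Dlk1, Peg3 and Peg10 (8.5%), while no member lay wholly below EGFP in either (4.42% of genes in Ptn_DEL and 5.2% in Ptn_Delta). Ptn_VP64 lay wholly above Ptn_Delta for Igf2r, Peg3 and Peg10 (11.6%) and wholly above Ptn_DEL for Peg3 and Peg10 (9.09%), with Cdkn1c wholly below in both (11.4% of genes against Ptn_Delta and 9.31% against Ptn_DEL).

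**Figure D3:**
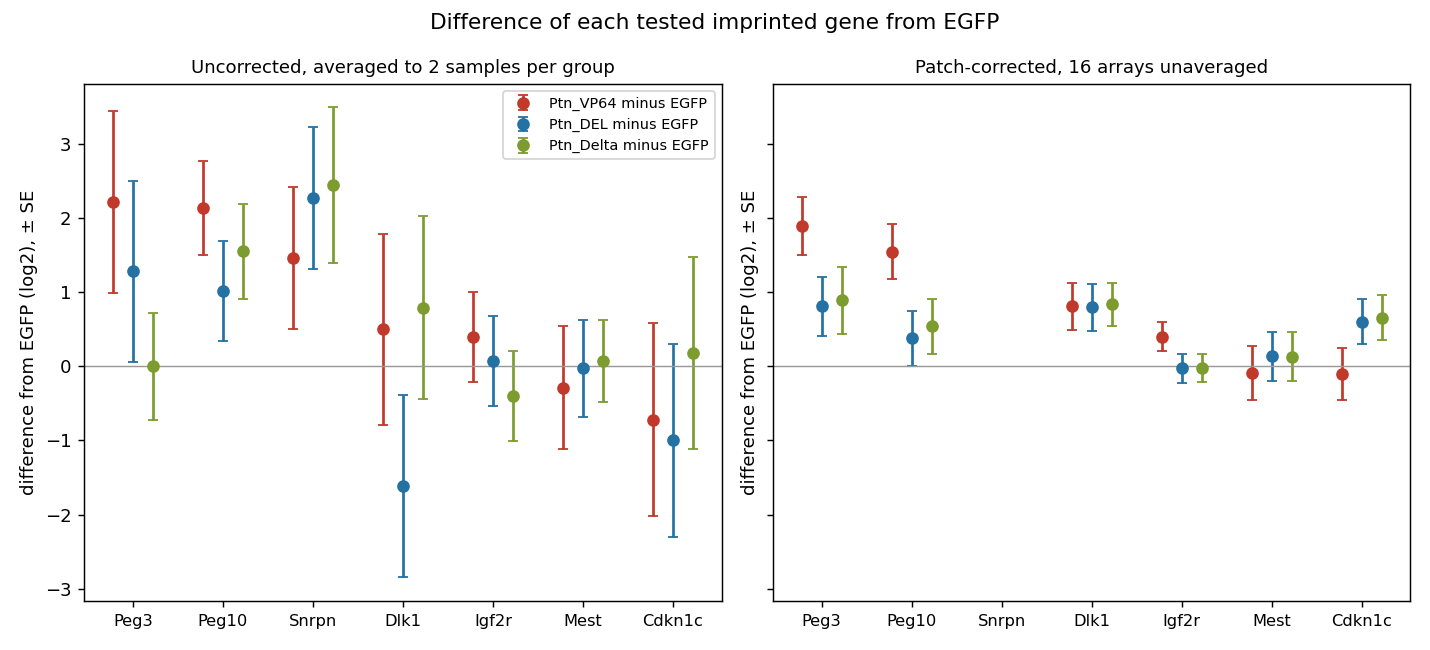
Difference in log2 level from EGFP, with its SE, for each tested gene in Ptn_VP64, Ptn_DEL and Ptn_Delta, from uncorrected levels averaged to 2 samples per group (left) and from patch-corrected levels with the 16 arrays counted singly (right), where Snrpn was not tested. The Snrpn and Dlk1 values change between panels, while Peg3 and Peg10 are higher in Ptn_VP64 in both, by 2.22 and 2.13 at left and 1.89 and 1.55 at right.

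Other imprinted genes were listed by the parental copy they are known to be read from. Of 26 paternally expressed genes 23 had a probe and 15 were tested, and 11 of these had positive Ptn_VP64 minus EGFP differences, with a median of 1.00. Of 33 maternally expressed genes 26 were tested, 12 were positive and the median was -0.08, which quantile normalization turned to 0.30. The paternally expressed median was 0.87 with quantile normalization and 0.31 (10 of 15 positive) with normexp background correction. Over all genes 55.8% were positive and the median was 0.07. No listed gene was called, and 1 paternally expressed gene had an unadjusted p under 0.05, Plagl1, a zinc finger transcription factor, at 3.42 ± 1.21 (limma, adjusted p = 1). The other genes at the ends of the paternally expressed list were Airn, given above, and Zrsr1 and Zdbf2 at -0.72 ± 0.83 and -0.37 ± 0.87. In the maternally expressed list they were Dhcr7, a cholesterol synthesis enzyme, at 1.23 ± 0.59, Osbpl5 at 1.76 ± 1.02, Tspan32 at -1.08 ± 0.74 and Th, the rate-limiting enzyme of catecholamine synthesis, at -1.0 ± 0.88.

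With patch correction and the arrays counted singly, 11 of 13 paternally expressed genes were positive for Ptn_VP64 minus EGFP (median 1.17) and 12 of 23 maternally expressed ones (median 0.02), beside 51.4% and a median of 0.02 over all genes. Ndn, a growth suppressor at the Prader-Willi locus, passed at 1.41 ± 0.27 (limma, adjusted p = 0.016), beside 1.03 ± 0.69 uncorrected, but not with the arrays averaged on the same levels (limma, adjusted p = 0.35), and Plagl1 gave 2.86 ± 0.72 (limma, adjusted p = 0.065). Sgce, the next gene to Peg10 and read from the same paternal copy, gave 1.47 ± 0.48 (limma, adjusted p = 0.13). The same paternally expressed genes had medians of 0.51 in Ptn_DEL minus EGFP (11 of 13 positive) and 0.62 in Ptn_Delta minus EGFP (12 of 13 positive), and none passed there. Sgce was singled out as a neighbour after its value was seen.

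In Ptn_DEL minus EGFP the uncorrected medians were 0.61 for the 15 paternally expressed genes (11 positive) and 0.15 for the 26 maternally expressed genes (16 positive), beside 0.18 for all genes. The first of these was 0.28 with quantile normalization and -0.14 (7 of 15 positive) with normexp, so its sign depends on the background treatment. At the ends of the lists were Sfmbt2 at 1.13 ± 0.61, Magel2 at 1.13 ± 0.67, Zrsr1 at -0.70 ± 0.73 and Dio3 at -0.20 ± 0.81 among the paternally expressed, and Dhcr7 at 1.72 ± 0.60, Calcr, the calcitonin receptor, at 1.84 ± 0.74, Tssc4 at -2.87 ± 1.40 and Commd1 at -2.52 ± 1.71 among the maternally expressed. In Ptn_Delta minus EGFP the medians were 0.93 (11 of 15 positive) and 0.21 (18 of 26 positive), beside 0.18 for all genes. The first was 0.24 with quantile normalization and 0.02 (8 of 15 positive) with normexp. The ends were Kcnq1ot1 at 1.46 ± 0.78, Ins2 at 1.5 ± 0.78, Mcts2 at -0.63 ± 0.97 and Plagl1 at -0.36 ± 1.21, and Dhcr7 at 2.01 ± 0.60, Calcr at 1.83 ± 0.74, Slc22a18 at -0.95 ± 0.87 and Gnas at -0.48 ± 0.69. None of these passed (limma, adjusted p of 0.98 or more).

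**Figure D4:**
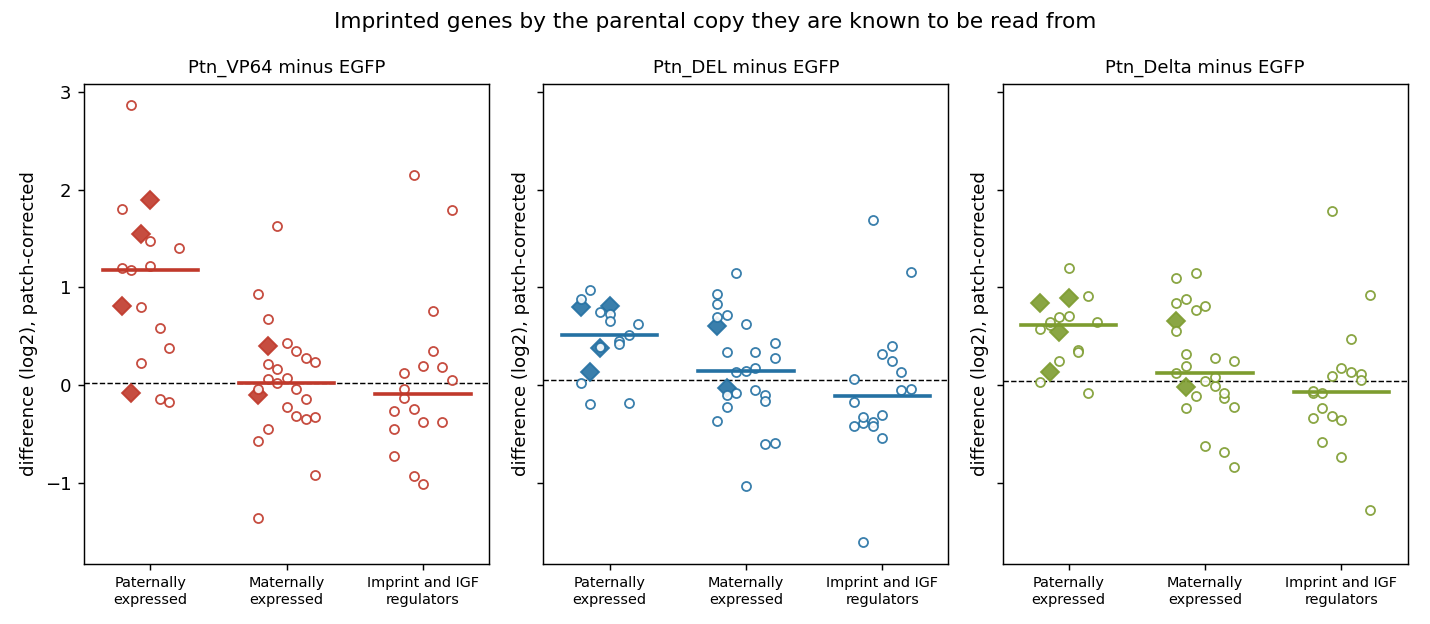
Patch-corrected difference in log2 level from EGFP, with the 16 arrays counted singly, for genes known to be read from the paternal copy, from the maternal copy, and for genes that act on imprints or on the IGF axis; filled diamonds are the members, open circles the other listed genes, solid bars the medians and dashed lines the median of all genes tested. Paternally expressed genes in Ptn_VP64 have a median of 1.17 (17 genes, 14 above 0), and maternally expressed genes one of 0.02 (25 genes, 13 above 0), a median whose sign changes with the scaling.

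Of 20 genes that act on imprints or on the IGF and CDKN1C axis all were tested, 9 were positive in Ptn_VP64 minus EGFP, and the median was -0.08 (0.03 with normexp). Dnmt3a, a de novo DNA methyltransferase, was 1.91 ± 0.86 higher (limma, adjusted p = 1), and Ehmt2, a histone methyltransferase, gave 2.84 ± 1.35, against -1.16 ± 0.65 for Ccne1 and -1.33 ± 0.95 for Igf1r. In Ptn_DEL minus EGFP Ehmt2 gave 3.51 ± 1.35, Igf2bp1 1.63 ± 0.88, Trim28, the co-repressor that Zfp57 recruits, -2.41 ± 1.05 and Igf2bp2 -1.27 ± 0.97. In Ptn_Delta minus EGFP Igf2bp1 gave 2.95 ± 0.88, Ehmt2 3.54 ± 1.35, Dnmt1 -1.02 ± 0.95 and Igf2bp2 -1.07 ± 1.52, and none passed. After patch correction with the arrays counted singly Igf2bp2, an RNA-binding protein of the IGF2 mRNA family, fell by 1.02 ± 0.23 in Ptn_VP64 (limma, adjusted p = 0.028), but not on the same levels with the arrays averaged (limma, adjusted p = 0.43), and its uncorrected difference was -0.79 ± 1.86.

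The genes whose levels ran closest to a member were found by Pearson correlation over at least 12 shared arrays, as a description that includes array effects. Peg3 ran closest to Rnf128 (r = 0.96, 13 arrays) and Nrep (r = 0.96, 14 arrays), and patch-corrected levels gave r = 0.95 over 10 arrays and 0.86 over 11. For Peg10, Pex26 is given (r = 0.98, 13 arrays), with 0.95 over 12 arrays after correction. Snrpn ran closest to Nek9 and BC051226 (r = 0.99 and 0.98), whose spots lie 1 row away. Dlk1 ran closest to Cdip1 and Usp19 (r = 0.98 each), 7 and 3 rows away, and the first was at 0.17 after correction. Igf2r ran closest to Ubr4 and Map4k1 (r = 0.95 each, 12 arrays), with 0.43 and 0.84 after correction.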

How the data were processed

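Each sample is 1 array scanned by the authors, and the deposited scanner files hold background-subtracted processed signals as intensity values, per the file headers from Agilent Feature Extraction 11.5.1.1 with the mm9 annotation. The deposited series values look like log2 values, and all 16 columns share a median of 6.30 and the same quartiles, as after quantile normalization, but the authors' method is not given in the sources used here. They ran the same way as their arrays (rank correlation 0.938 to 1) and served as an alternative. Spots marked by the scanner software (non-uniform, or population outliers) were dropped, log2 levels were taken against each array's 75th percentile over non-control spots, spots of a probe were averaged, and the probe with the highest mean level stood for its gene. Of 55681 probes, 27667 had 1 symbol and 28014 none.

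Arrays were averaged to 2 samples per group in each of the 3 possible pairings and fitted with limma 3.58.1 (lmFit, eBayes) in R 4.3.3. Of the 3 p-values the highest was taken, and Benjamini-Hochberg adjustment ran across every gene in the fit, with a call at 0.05. The patch correction subtracts from each spot the median shift of a 21 by 21 window and leaves out spots shifted by over 1. The fits were also run on simulated data with independent noise on each array. These data held no technical repeats, slide effects or dim patches, so they do not show how the fits handle them. Alternatives also covered the filter, normexp, quantile normalization, all probes of a gene, marked spots, single arrays and each array left out.

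The members and lists were chosen with earlier results of these data known. All members are named, and of each list the 2 highest and 2 lowest genes by unadjusted p in each comparison with EGFP. Likeness genes are the 2 highest correlations over at least 12 arrays. One such gene is not reported here. The number of arrays limits the precision.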

Additional observations from a re-analysis of the deposited data

Results flagged for a closer look

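Of 21 groups of 4 arrays checked, 2 held an array far from the other 3. Both were Ptn_DEL replicate 2, so they are not independent. On that array neighbouring spots were shifted by -0.48 for Igf2r and by -0.96 for Peg10. The Igf2r level there was 1.22, against 2.11, 2.25 and 2.26 on the other Ptn_DEL arrays, and 1.73 after patch correction. The Peg10 level there was -3.53, against -1.68, -1.54 and -1.35, and -2.56 after patch correction.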

How the results depend on the processing

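Peg3 and Peg10 were higher in Ptn_VP64 than in EGFP under all 46 settings tried, by 1.39 to 2.98 and by 0.98 to 2.71. Most of these settings refit the same probe without 1 array, so they are not independent. Not among them, the patch-corrected Peg3 difference was 3.14 within slide 1 and 1.27 within slide 2. The slide 1 value rests on Ptn_VP64 replicate 1 and EGFP replicate 2 alone, and that EGFP spot was not well above background. The second Peg10 probe, also not among these settings, had the opposite order. The count of members called in that comparison depended on the setting. It was 0 of 7 in the main test and in its 16 versions without 1 array, 2 of 6 on patch-corrected levels with the arrays counted singly, and 0 to 2 of 6 when 1 array was left out of that fit (lowest 0, highest 2). With the replicate number as a block on patch-corrected levels, 1 member was called in each of Ptn_VP64 minus EGFP, Ptn_VP64 minus Ptn_Delta and Ptn_VP64 minus Ptn_DEL, which was Peg10 in all 3 (limma, adjusted p = 0.031, 0.046 and 0.025), beside 662, 240 and 244 of 11182 genes called, against 365, 79 and 94 without the block. Same-numbered arrays share a slide and a row of it. They correlated at -0.07 to 0.46 (median 0.14, 15 of 24 pairs over 0.1), against a median of -0.04 and 7 of 72 pairs over 0.1 for different numbers, and 11 of 16 arrays correlated best with one of their own number. Whether the number also marks a shared culture is not stated. Of the levels of the probes that stand for the 7 tested genes, those that moved beyond their SD were Cdkn1c in Ptn_VP64 (2.11 with quantile normalization), Dlk1 in Ptn_DEL (0.39 patch-corrected, 1 array left) and Snrpn in EGFP (3.90 patch-corrected, 1 array left); the cause was not tested. Signals near background limit Igf2 and H19.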
